A study of Homo sapiens with 12 samples.

Results

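Long noncoding RNAs linked to prostate cancer were followed in LNCaP cells, an androgen-responsive prostate cancer line, with and without Bag-1L, a cochaperone and the longest protein made from the BAG1 mRNA. The 8 RNAs were PCA3, PCGEM1, PCAT1, NEAT1, MALAT1, GAS5, DANCR and H19, chosen by symbol from 63677 gene identifiers, and each matched 1 identifier. Bag-1L KO cells had been made with a TALEN, an engineered nuclease aimed at the CTG start codon of Bag-1L, and were isolated as single clones by serial dilution, so that effects of the KO and of the clone cannot be told apart. The control line carried the TALEN vector control. Each line was grown in full medium with serum (FM), or was hormone starved for 72 h in charcoal-treated serum and then given ethanol vehicle (EtOH) or 10 nM dihydrotestosterone (DHT), an androgen, for 16 h. Biological duplicates gave 12 samples in 6 groups of 2, so p-values reflect the spread between duplicates.

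Long noncoding RNAs are transcripts without a long reading frame, and many of them act in the nucleus. Androgens such as DHT raise the transcription of some genes in prostate cells and lower that of others, and prostate cells carry several noncoding RNAs among both kinds. PCA3, PCGEM1 and PCAT1 are known for their raised levels in prostate tumors. NEAT1 and MALAT1 are abundant nuclear RNAs made next to each other on chromosome 11, NEAT1 as the scaffold of nuclear bodies called paraspeckles and MALAT1 as an RNA of nuclear speckles, which hold splicing factors. GAS5 and DANCR carry small nucleolar RNAs (snoRNAs) in their introns, and H19 is an imprinted RNA of fetal growth.

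In these cells PCAT1 was lower with DHT and with FM in both lines and higher in KO under all 3 culture conditions. NEAT1 rose with DHT in the control line, by 1.82-fold. MALAT1 and GAS5 fell in FM in both lines, GAS5 by 2.36-fold in control and by 2.31-fold in KO. DANCR passed no test. PCA3 and H19 were present at trace level, and PCGEM1 was at the limit of detection.

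The libraries held between 20826843 and 30354666 gene counts, so that 3 counts, the floor of detection used here, corresponded to between 0.0988 and 0.144 CPM (counts scaled to the library total). The duplicates of control EtOH differed most, by a median of 0.24 on the log2 scale among 11374 genes, beside 0.08 in KO EtOH. BAG1 mRNA, which also encodes shorter proteins, was lower in KO in EtOH (log2 fold change -0.94, DESeq2 adjusted p = 6.35e-06) and in DHT (-1.14, adjusted p = 7.71e-09), and did not pass in FM (-0.43, adjusted p = 0.0682). Without control EtOH replicate 2 the EtOH value was -0.57, below the fold change minimum. KLK3, which encodes the prostate-specific antigen of luminal prostate cells, stood at 5354 to 23182 normalized counts, and HOXB13, a prostate transcription factor gene, at 4245 to 7867.5. The basal markers TP63, KRT5 and KRT14 summed to between 2.8 and 32.9, highest in KO FM, and the leukocyte markers to at most 2.0. Of the 4 fibroblast markers COL1A1 stood at 370.3 to 1013 and the others, COL1A2, DCN and LUM, at 9.9 or less. Of the endothelial markers VWF stood at 127.0 to 240.7 and CDH5 at 6.1 or less.

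Level was compared between genes as FPKM, the count scaled to the library total and to the kilobases of the canonical transcript, with lengths from GENCODE release 44 on GRCh37. On this scale GAS5 was the most abundant, at a median of 344 FPKM over the 12 samples (range 199 to 675). DANCR followed at 45.5 FPKM (34.8 to 54.1), PCAT1 at 28.3 (11.3 to 51.6), MALAT1 at 13.9 (7.18 to 24.3) and NEAT1 at 5.82 (4.41 to 9.19). The range of PCAT1 overlapped those of DANCR and MALAT1, which did not overlap each other. With the length of the short NEAT1 transcript, 3441 bases in place of 22743, the NEAT1 median was 38.5 FPKM, so its place in the order depends on the form counted. The places of other genes depend on the length chosen too, since counts were per gene and not per canonical transcript. All annotated exons together span 18491 bases for PCAT1 in place of 906, and 4932 for GAS5 in place of 768. For DANCR they span 10179 in place of 3959, and for MALAT1 both lengths are 10434. H19 had a median of 0.6 FPKM, PCA3 of 0.194 and PCGEM1 of 0.0371. The first 5 of these genes and H19 reached 3 counts in 12 of 12 samples, PCA3 in 11 of 12 and PCGEM1 in 4 of 12.

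The libraries were made from RNA captured by its poly(A) tail, and the ends of the 2 chromosome 11 RNAs show what such a capture can meet. MALAT1 (ENSG00000251562, chr11:65265111-65275544, plus strand, GRCh37, a single exon) ends in a processed tail without poly(A). Its longest run of A is genomic, with 13 bases at chr11:65273569-65273581, and the next longest has 8. NEAT1 (ENSG00000245532, chr11:65190245-65213011, plus strand, a single exon) makes a short form with a poly(A) tail and a long form without. The NEAT1 gene also holds a genomic run of A, at 22 bases longer than that of MALAT1. The annotation holds 8 short NEAT1 transcripts, the last ending at base 65193984, beside an AATAAA, the letters of the polyadenylation signal. The levels of MALAT1 and of the long NEAT1 form may therefore be understated, and a count per gene does not divide NEAT1 between its forms. In the lines shown, both on the plus strand of GRCh37, capitals mark the A run of MALAT1 at chr11:65273487-65273588 and the AATAAA of NEAT1 at chr11:65193935-65193994.
MALAT1 longest A run: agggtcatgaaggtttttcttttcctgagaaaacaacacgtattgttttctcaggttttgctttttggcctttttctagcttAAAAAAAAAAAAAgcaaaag
NEAT1 end of short transcripts: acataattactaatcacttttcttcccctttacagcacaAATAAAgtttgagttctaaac

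GAS5 (ENSG00000234741, chr1:173827697-173838020, minus strand) belongs to the transcripts that start with a C followed by a run of pyrimidines, the 5′ terminal oligopyrimidine type, which it shares with ribosomal protein mRNAs and whose translation depends on growth signals. Its start is shown because GAS5 was the snoRNA host among the 8 that moved with the medium, whereas DANCR (ENSG00000226950, chr4:53578492-53589790, plus strand) was not called. ZFAS1 and EPB41L4A-AS1, both noncoding snoRNA hosts that fell in FM in control, are set beside them. Each line gives the first 30 bases of the canonical transcript, with capitals for a C and at least 4 pyrimidines after it.
GAS5 (chromosome 1, from 173837127, minus strand): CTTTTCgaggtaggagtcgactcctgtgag
ZFAS1 (chromosome 20, from 47895179, plus strand): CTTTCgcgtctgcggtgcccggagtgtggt
DANCR (chromosome 4, from 53578668, plus strand): ggcctctttgtcagctggagttgcgcgggc
EPB41L4A-AS1 (chromosome 5, from 111496223, plus strand): tgtcgggtcccaaaatacgtggtctaaagt
Of the 16815 tested genes with a start in the annotation, 780 (4.64%) began in this way, as did 2 of 17 snoRNA hosts and 1 of the 8 noncoding RNAs. ZFAS1 was the 1 of the 6 hosts lower in FM in control, beside 1 of the 11 others. Annotated starts can lie some bases from the start in use, so an absent run says only that these letters are not in the annotated window. The bases before the GAS5 start hold 1 TGACGTCA, the letters of the cyclic AMP response element, which begins 50 bases before the start, and 1 TATATA, which begins 29 bases before it. Both were searched in 100 bases, chr1:173837088-173837187 on the minus strand, and a match is a description of the letters only.
GAS5 start region: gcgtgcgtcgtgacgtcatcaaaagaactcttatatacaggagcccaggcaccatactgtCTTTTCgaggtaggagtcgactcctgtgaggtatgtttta

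The values of the 8 RNAs were compared on the scale of normalized counts, that is, counts divided by the DESeq2 size factor of the library. A gene passed with a DESeq2 adjusted p up to 0.05 and a change of 1.5-fold or more, and fold changes are given on the log2 scale with their standard error (SE). In bulk RNA, fewer cells with a transcript and less of it per cell cannot be told apart.

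**Figure D1:**
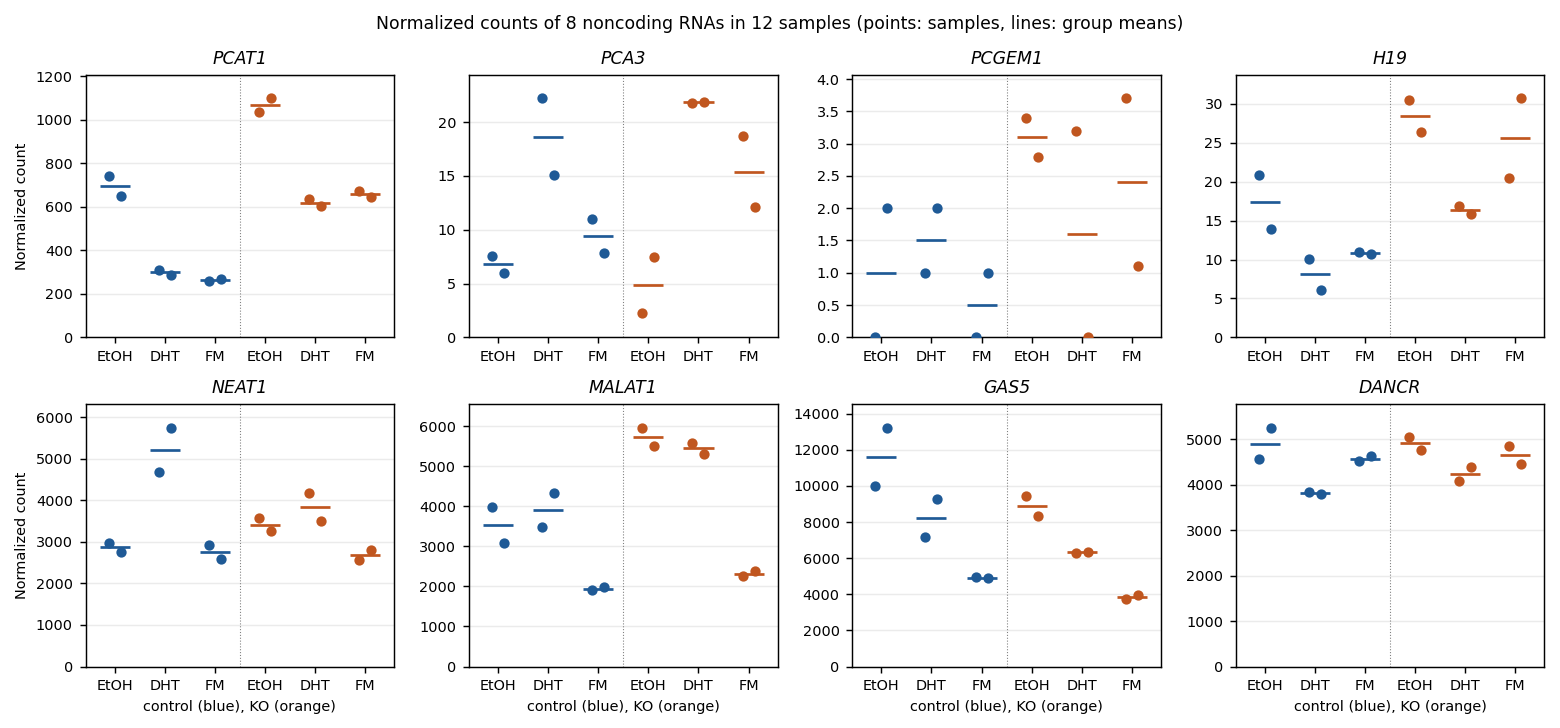
Normalized count of each of the 8 noncoding RNAs (vertical axes from 0, a scale for each gene) in control (blue) and KO (orange) cells under EtOH, DHT and FM (horizontal axis), with a point for each of the 2 samples and a line for the group mean. Both KO samples of PCAT1 lie above both control samples in every condition, and MALAT1 and GAS5 are lowest in FM in both lines.

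PCAT1 (ENSG00000253438, chromosome 8, 127568568 to 128431295, plus strand), a noncoding RNA of the gene-poor region before MYC, moved in more comparisons than any other of the 8. In control cells it stood at 743 and 649.5 normalized counts in EtOH, 308 and 288.5 in DHT and 261 and 268.5 in FM. In KO cells it stood at 1036.5 and 1098 in EtOH, 634 and 603 in DHT and 672.5 and 646 in FM. EtOH samples were above DHT and FM samples in both lines without overlap, and KO samples were above control samples in all 3 conditions. The means were 696.4 ± 66.2 (SD, n = 2) in control EtOH and 1067 ± 43.7 (SD, n = 2) in KO EtOH. The gene model used for the position spans neighbouring genes, sharing 4.59% of its exon bases with POU5F1B on the same strand and 7.62% with LRATD2 on the other, and its extent in the authors' annotation was not given in the sources used here.

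With DHT, PCAT1 fell by 1.22 on the log2 scale in control (log2 fold change -1.22, SE 0.14, adjusted p = 1.31e-17) and by 0.79 in KO (log2 fold change -0.79, SE 0.13, adjusted p = 1.86e-08). The difference between these responses was 0.44 (95% interval 0.07 to 0.80) and did not pass (adjusted p = 0.823). In FM against EtOH it fell by 1.40 in control (log2 fold change -1.40, SE 0.14, adjusted p = 3.1e-22) and by 0.70 in KO (log2 fold change -0.70, SE 0.13, adjusted p = 4.7e-07). This difference, 0.70 (SE 0.19), passed in DESeq2 (adjusted p = 0.0193) but not in edgeR (0.72, adjusted p = 0.0915), nor when only the groups compared were fitted (0.71, adjusted p = 0.0582), nor without any 1 of the FM or KO EtOH samples. The same EtOH samples served for FM and for DHT, so these values share their controls. FM cells had neither starvation nor vehicle, so FM against EtOH compares whole culture conditions.

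KO against control, PCAT1 was higher by 0.62 in EtOH (SE 0.13, adjusted p = 4.68e-05), by 1.05 in DHT (SE 0.14, adjusted p = 1.44e-12) and by 1.32 in FM (SE 0.14, adjusted p = 7.29e-19). The level in KO with DHT thus lay near that of control in EtOH, at 618.4 ± 22.3 against 696.4 ± 66.2 normalized counts (SD, n = 2 each). The EtOH value lay close to the fold change minimum, and became 0.52 without control EtOH replicate 2 and 0.57 without KO EtOH replicate 2, below it. MYC, the oncogene downstream of PCAT1, was lower with DHT in control (-0.75, SE 0.10, adjusted p = 6e-12) and did not pass in KO (-0.30, SE 0.10, adjusted p = 0.0279). The difference between these MYC responses did not pass in DESeq2 or in edgeR, and lay between 0.37 and 0.54 over the settings. MYC stood at -0.31, 0.14 and -0.14 in KO against control in EtOH, DHT and FM and passed in none of them. PVT1, a noncoding RNA on the far side of MYC, was lower in FM in control (-0.84, SE 0.12, adjusted p = 3.39e-11) and stood at -0.32, -0.01 and -0.04 in KO against control in EtOH, DHT and FM.

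PCA3 (ENSG00000225937, chr9:79306896-79478223, plus strand), the RNA measured in the urine test for prostate cancer, lies within PRUNE2 on the opposite strand. Its counts were small, at 8 and 6 in control EtOH, 22 and 15 in control DHT, while control FM held 10 and 8. In KO they were 2 and 8 in EtOH, 27 and 22 in DHT and 20 and 11 in FM. Counts with DHT were above those in EtOH in both lines, without overlap. In KO the rise with DHT passed, at 2.11 (SE 0.71, adjusted p = 0.0267), and in control, at 1.46 (SE 0.68, adjusted p = 0.123), it did not. The 95% intervals were wide, from 0.71 to 3.51 in KO and from 0.13 to 2.79 in control. In edgeR the control value passed too (1.42, adjusted p = 0.0485), and the KO call was lost with only the groups compared (2.14, adjusted p = 0.0504) and in each of the 4 fits that left out a KO EtOH or KO DHT sample. Without KO DHT replicate 2 the value was 2.12 (adjusted p = 0.149), and the other fits gave no adjusted p. The difference between the lines, 0.66 (95% interval -1.27 to 2.59), was not resolved at this depth and had no adjusted p.

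PRUNE2 (chr9:79226292-79521030, minus strand), whose RNA pairs with PCA3 RNA in prostate cells, fell with DHT. It stood at 8716 and 5556.5 normalized counts in control EtOH, 2281 and 1680.5 in control DHT, while control FM held 2522 and 2527. In KO it stood at 12881 and 14295 in EtOH, 7362 and 6104 in DHT and 3423 and 3013 in FM. DHT samples were below EtOH samples in both lines without overlap. PRUNE2 fell by 1.85 with DHT in control (log2 fold change -1.85, SE 0.19, adjusted p = 1.06e-20) and by 1.01 in KO (log2 fold change -1.01, SE 0.19, adjusted p = 2.02e-06). The difference between these responses did not pass in DESeq2 or in edgeR, and lay between 0.48 and 1.13 over the settings. PRUNE2 was higher in KO in EtOH (0.93, SE 0.19, adjusted p = 3.5e-05) and in DHT (1.77, SE 0.19, adjusted p = 2.59e-18), and was not called in FM (0.35, adjusted p = 0.189). PCA3 shared 7.48% of its exon bases with PRUNE2, and the strand setting of the counting was not given in the sources used here.

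**Figure D2:**
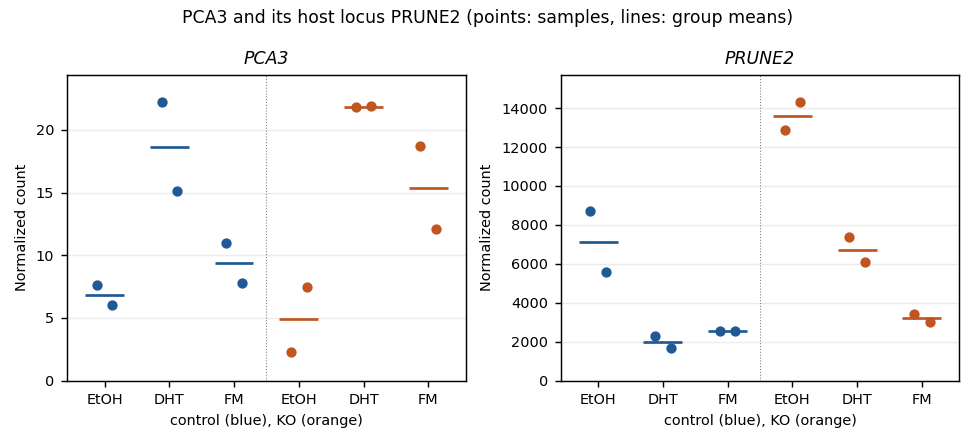
Normalized counts of PCA3 and of PRUNE2, the gene around it (vertical axes from 0), in control (blue) and KO (orange) cells under EtOH, DHT and FM, with a point for each of the 2 samples and a line for the group mean. PCA3 means were 6.8 in control EtOH and 18.7 in control DHT, against 7136 and 1981 for PRUNE2.

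PCGEM1 (ENSG00000227418, chr2:193614571-193641625, plus strand), a prostate-specific RNA first described in tumors, had between 0 and 4 counts in a sample and 21 counts over all 12. DESeq2 gave it no adjusted p in any comparison, and no direction can be read at this depth. H19 (ENSG00000130600, chr11:2016396-2025782, minus strand), expressed from the maternal copy beside IGF2, had between 6 and 28 counts. It stood at 20.9 and 13.9 normalized counts in control EtOH, 10.1 and 6.1 in control DHT, while control FM averaged 10.9 ± 0.2 (SD, n = 2). In KO it stood at 30.5 and 26.4 in EtOH, 16.9 and 15.9 in DHT and 20.5 and 30.7 in FM. KO samples were above control samples in each condition without overlap, yet no comparison passed in DESeq2. The KO value was 0.70 in EtOH (adjusted p = 0.503), 1.03 in DHT (adjusted p = 0.258) and 1.23 in FM (SE 0.56, adjusted p = 0.109), and in FM it passed in edgeR (1.23, adjusted p = 0.0449). The growth factor gene IGF2 was lower in FM in control (-0.92, SE 0.37, adjusted p = 0.0402) and stood at -0.48 in KO against control in EtOH (adjusted p = 0.512).

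NEAT1 stood at 2981 and 2749 normalized counts in control EtOH, 4685 and 5749.7 in control DHT, while control FM held 2926.5 and 2583.5. In KO it stood at 3569.6 and 3259 in EtOH, 4177 and 3491 in DHT and 2573 and 2813.5 in FM. Both control DHT samples were above all other samples, and KO DHT overlapped with KO EtOH. With DHT it rose in control (0.86, SE 0.14, adjusted p = 6.07e-09) and stood at 0.17 in KO (95% interval -0.10 to 0.43, adjusted p = 0.542). The difference between the responses was -0.70 (SE 0.19, adjusted p = 0.062) and did not pass. Over the 8 fits that left out a sample this difference lay between -0.84 and -0.54. It passed in some of these fits and not in others, and it did not pass in edgeR. In KO against control with DHT the value was -0.44 (SE 0.14, adjusted p = 0.0103), short of the fold change minimum, and without control DHT replicate 1 it became -0.59 and passed. In FM against EtOH NEAT1 stood at -0.06 in control and -0.34 in KO.

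Of 20 listed proteins of the paraspeckle, 19 were tested, since the identifier matched to TAF15 held 0 counts in every sample. This does not show that the gene was silent. With DHT in control 1 rose and none fell, with a list median of 0.02 beside -0.02 over all genes tested, where 11.4% of genes passed. This was RBM14, an RNA-binding protein needed to build paraspeckles, at 1265 and 1481 normalized counts in control EtOH and 2342 and 2086 in control DHT (0.69, SE 0.12, adjusted p = 5.63e-08). RBM14 also rose with DHT in KO (0.73, SE 0.12, adjusted p = 1.86e-08), and it was higher in FM in both lines (0.69 in control and 0.92 in KO). No protein of the list passed in KO against control in DESeq2 or in edgeR. Over all genes tested in DESeq2, 844 of 16521 passed in EtOH, 1278 of 16014 in DHT and 1202 of 15000 in FM. At such shares a count of 0 among 19 says little about the list. In DESeq2 7 of 19 were at an unadjusted p below 0.05 in EtOH, 9 in DHT and 4 in FM. Values below 0 were held by 17 of 19 in EtOH, 17 in DHT and 16 in FM. FRMD8, the neighbour before NEAT1, passed nowhere.

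MALAT1 stood at 3990.1 and 3091 normalized counts in control EtOH, 3479 and 4339.5 in control DHT, while control FM held 1909 and 1986. In KO it stood at 5966 and 5513 in EtOH, 5589.5 and 5311 in DHT and 2249.7 and 2383 in FM. FM samples were below all starved samples in both lines, and DHT and EtOH samples overlapped. In FM it fell by 0.86 in control (log2 fold change -0.86, SE 0.14, adjusted p = 1.57e-08) and by 1.31 in KO (log2 fold change -1.31, SE 0.14, adjusted p = 4.75e-19). The difference, -0.45 (95% interval -0.84 to -0.06, adjusted p = 0.252), did not pass, and without control EtOH replicate 1 it was -0.64 and did. KO was higher in EtOH (0.70, SE 0.14, adjusted p = 3e-05). This passed in all fits but the fit without control EtOH replicate 2, where the value was 0.52, below the fold change minimum. In DHT the KO value was 0.48 (SE 0.14, adjusted p = 0.00669), short of that minimum, and in FM 0.25 (adjusted p = 0.215). TALAM1, the antisense RNA of MALAT1, covers 77.8% of the MALAT1 exon bases, so the counts depend on how the strand was used.

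**Figure D3:**
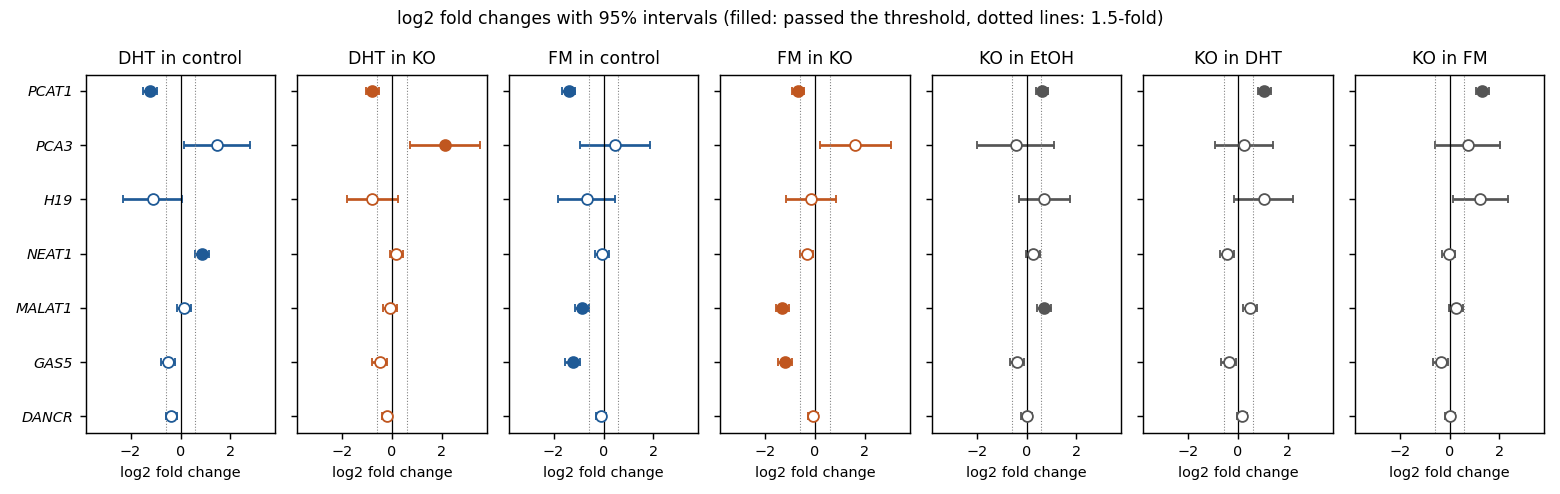
log2 fold changes (horizontal axes) of 7 noncoding RNAs (vertical axis, PCGEM1 left out) in DHT against EtOH, FM against EtOH and KO against control, with 95% intervals, filled points for values that passed and dotted lines at the 1.5-fold minimum. PCAT1 is filled in all 7 comparisons, and the intervals of PCA3 and H19 are the widest.

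GAS5, an RNA first found in growth-arrested cells, stood at 10008 and 13228 normalized counts in control EtOH, 7151 and 9276 in control DHT, while control FM held 4934 and 4912. In KO it stood at 9468 and 8317 in EtOH, 6278 and 6357 in DHT and 3725 and 3965 in FM. In both lines the order was EtOH above DHT above FM without overlap. The FM values passed, at -1.24 in control (SE 0.15, adjusted p = 4.4e-15) and -1.21 in KO (SE 0.15, adjusted p = 1.91e-14), and their difference was 0.03 (95% interval -0.39 to 0.44). The DHT values, -0.50 in control (SE 0.15, adjusted p = 0.00628) and -0.49 in KO (SE 0.15, adjusted p = 0.0103), were short of the fold change minimum. In control the DHT value passed without control EtOH replicate 1 (-0.69) or control DHT replicate 2 (-0.70), and was -0.29 without control EtOH replicate 2 (adjusted p = 0.102) and -0.32 without control DHT replicate 1 (adjusted p = 0.187). KO against control was between -0.39 and -0.36 in the 3 conditions and passed in none. ZBTB37, which starts close by in the other direction, passed nowhere.

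DANCR, an RNA that holds cells in an undifferentiated state, varied least of the 8, with a log2 range of 0.36 over the 6 group means. It stood at 4552 and 5251 normalized counts in control EtOH, 3833 and 3787 in control DHT, while control FM held 4510.1 and 4627. In KO it stood at 5042 and 4764 in EtOH, 4069 and 4379.5 in DHT and 4843 and 4449 in FM. DHT samples were the lowest in both lines. With DHT the value was -0.36 in control (SE 0.11, adjusted p = 0.00501) and -0.22 in KO (95% interval -0.42 to -0.01, adjusted p = 0.198), both short of the fold change minimum. KO against control in EtOH was 0.00 (95% interval -0.21 to 0.21), and it turned to -0.01 with only the groups compared. USP46, upstream of DANCR, passed nowhere.

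Counted together, 2 of the 7 tested RNAs passed with DHT in control, NEAT1 higher and PCAT1 lower, beside 11.4% of all genes tested. In KO 2 of 7 passed, PCA3 higher and PCAT1 lower, beside 7.68%. None of 5 tested passed for the difference between these responses in DESeq2, with 2 at an unadjusted p below 0.05 and 0 in edgeR, beside 0.408% of all genes. In FM against EtOH 3 of 7 passed in each line, all lower, beside 11.5% of genes lower in control and 9.68% in KO. PCAT1 was the 1 of 5 that passed for the difference in FM response, beside 1.39%. In KO against control 2 of 7 passed in EtOH, 1 of 7 in DHT and 1 of 6 in FM, all higher, beside 2.8%, 4.66% and 5.41% of genes higher. COL1A1, the one fibroblast marker above 9.9, also stood lower in FM, with the fibroblast list summed at 744.0 to 787.9 in control EtOH and 425.1 to 442.8 in control FM. The list stood at 686.1 to 764.2 in KO EtOH and at 379.6 to 422.0 in KO FM, and the other 3 markers were near 0 throughout.

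The other noncoding snoRNA hosts were described beside GAS5 and DANCR. Of 18 listed, SNHG4 was not matched and 17 were tested. In FM in control 6 fell and none rose, beside 11.5% of all genes lower, with a list median of -0.30 beside -0.01 over all genes tested. In KO 3 fell and 1 rose, beside 9.68% of genes lower, with a median of -0.03. The 6 were SNHG19 (-1.78), EPB41L4A-AS1 (-1.29), SNHG5 (-0.86), SNHG8 (-0.70), ZFAS1 (-0.69) and SNHG6 (-0.61), of which all but EPB41L4A-AS1 were named after their values were seen. In KO the 3 were EPB41L4A-AS1 (-1.11), SNHG19 (-0.88) and SNHG5 (-0.61), and SNHG10 rose (0.78), beside 9.61% of genes higher. None of the 17 passed for the difference in FM response between the lines in DESeq2 or in edgeR, beside 1.39% of all genes in DESeq2. In DESeq2 2 of the 17 were at an unadjusted p below 0.05. EPB41L4A-AS1, at 852 and 1231.5 normalized counts in control EtOH and 415 and 439 in control FM, was also the 1 host that fell with DHT in control (-0.72, SE 0.17, adjusted p = 0.000352). In that comparison 11.4% of all genes tested were called. In KO none of 17 passed with DHT in DESeq2 or in edgeR, beside 7.68% of all genes called in DESeq2. There 4 of the 17 were at an unadjusted p below 0.05 in DESeq2. At such shares counts of 0 or 1 among 17 say little about the hosts.

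The control EtOH duplicates differed in these very genes, with 15 of 17 hosts higher in replicate 2 and a median log2 difference of 0.45. In control DHT 16 of 17 were higher in replicate 2, by a median of 0.30, whereas in KO EtOH 3 of 17 were, with a median of -0.08. Without control EtOH replicate 2, 2 of the hosts fell in FM in control and the list median was -0.07. In KO fewer hosts were called lower in each fit that left out a KO FM or KO EtOH sample. The list median there was 0.09 without KO EtOH replicate 1 and -0.15 without KO EtOH replicate 2. It was -0.005 without KO FM replicate 1 and -0.06 without KO FM replicate 2. GAS5 passed in FM in both lines in every fit that left out a sample. In KO against control none of the 17 passed in EtOH in DESeq2 (5 at an unadjusted p below 0.05) or in edgeR. Over all genes tested, 844 of 16521 passed there in DESeq2. SNHG1 was lower in DHT (-0.62), where 3.32% of genes were lower. SNHG19 (0.94) and SNHG9 (0.61) were higher in FM, where 5.41% of genes were higher.

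**Figure D4:**
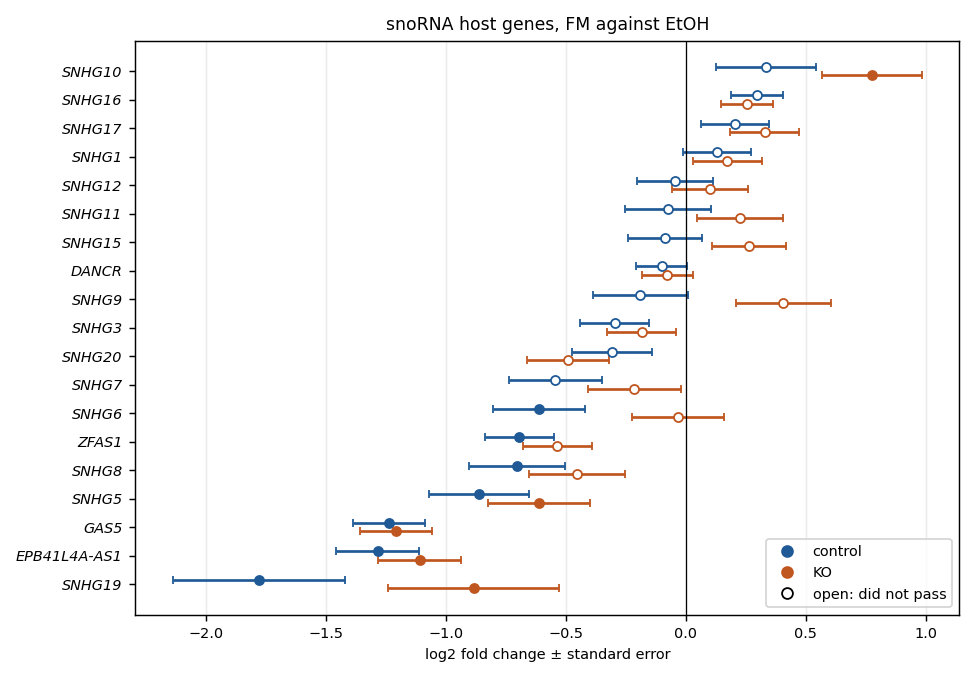
log2 fold change of FM against EtOH ± standard error (horizontal axis) for 17 noncoding snoRNA hosts with GAS5 and DANCR (vertical axis, sorted by the control value), in control (blue) and KO (orange), with open points for values that did not pass. GAS5, EPB41L4A-AS1, SNHG5 and SNHG19 are filled in both lines, and DANCR in neither.

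Other long noncoding RNAs known from prostate cancer were counted in the same way. Of 24 listed, 18 were matched and 16 were tested with DHT. In control 3 rose and 2 fell, beside 11.4% of all genes called, and in KO 3 rose and 1 fell, beside 7.68%, with list medians of 0.25 and 0.07 that lay between -0.38 and 0.27 in control and between -0.17 and 0.07 in KO over the alternatives. DRAIC, an RNA described as a suppressor of tumor invasion, stood at 246.5 and 256 normalized counts in control EtOH and 112 and 102 in control DHT. It fell with DHT by 1.23 in control (log2 fold change -1.23, SE 0.19, adjusted p = 3.25e-09) and by 0.69 in KO (log2 fold change -0.69, SE 0.18, adjusted p = 0.00242). The KO value lay between -0.76 and -0.62 over 12 settings and passed in 10 of them. CRNDE, an RNA raised in several cancers, was lower with DHT in control (-0.64, SE 0.20, adjusted p = 0.0104). Its value lay between -0.95 and -0.38 over 12 settings and passed in 9 of them. It was not called with only the groups compared, nor without control EtOH replicate 2 or control DHT replicate 1.

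The RNAs that rose were named after their values were seen, since their counts were under the level set for naming. SOCS2-AS1, antisense to the SOCS2 gene, stood at 24.7 and 25.9 normalized counts in control EtOH and 137 and 139 in control DHT (2.45, SE 0.30, adjusted p = 2.9e-14), and it rose by 1.42 in KO (adjusted p = 2.86e-05). ARLNC1, a prostate RNA, rose in control (1.49, adjusted p = 0.0186) and in KO (SE 0.41, adjusted p = 0.000598). It was also higher in KO against control in DHT (1.25, adjusted p = 0.0128) and in FM (1.49, adjusted p = 0.000928). ARLNC1 values in control EtOH, 3.8 and 13.9 normalized counts, were far apart. Its rise in control lay between 0.83 and 2.70 over 11 settings and passed in 7 of them, and KO against control in DHT also passed in 7. POTEF-AS1 rose in control (1.64, adjusted p = 0.00118), and was not called with only the groups compared. Its control EtOH samples stood at 8.0 and 16.2 normalized counts. LINC00844, with 0 counts in both KO EtOH samples and 12 and 9 in KO DHT, passed in KO. It also passed in edgeR and with no fold change minimum. With TMM size factors in DESeq2, no filter on low counts, the replicate block or only the groups compared, LINC00844 was not called. None of 13 tested passed for the difference in DHT response in DESeq2, beside 0.408% of all genes, with 2 at an unadjusted p below 0.05 and 0 passing in edgeR. In KO against control none of 13 passed in EtOH in DESeq2, beside 844 of 16521 genes tested. Of the 13, 6 were at an unadjusted p below 0.05, while PCAT6 and PCAT19 passed in edgeR. PCAT19 was lower in KO in DHT (-1.83, adjusted p = 4.99e-05). In FM against EtOH 5 rose and 5 fell of 17 tested in control, beside 21.3% of all genes called, and 4 rose and 3 fell in KO, beside 19.3%.

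**Figure D5:**
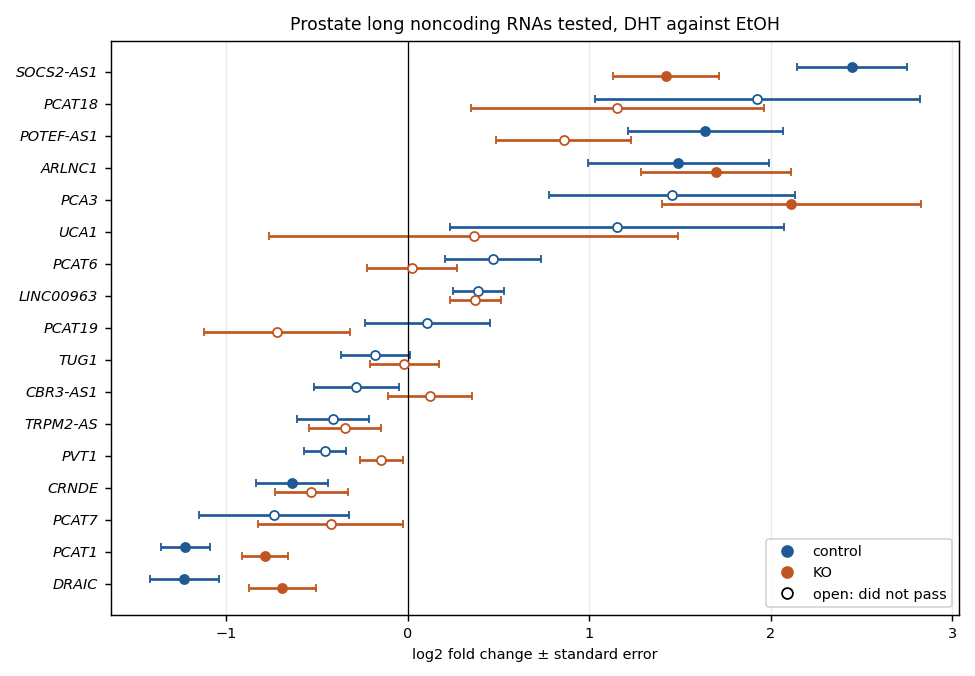
log2 fold change of DHT against EtOH ± standard error (horizontal axis) for prostate long noncoding RNAs that were tested, with PCAT1 and PCA3 (vertical axis, sorted by the control value), in control (blue) and KO (orange), with open points for values that did not pass. LINC00844 is left out because both KO EtOH samples held 0 counts, and DRAIC and PCAT1 are at the lower end in both lines.

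The letters of a steroid hormone response half-site, AGAACA, or TGTTCT on the other strand, were searched in the 300 bases of each RefSeq promoter window (GRCh37). Of 35116 windows, 5192 (14.8%) held them. For 6 of the 8 RNAs there were 8 windows. The single windows of H19 and PCGEM1 held a match, as did 1 of 2 of MALAT1, and the single windows of GAS5 and DANCR and both windows of PCA3 held none. NEAT1 and PCAT1 had no entry. At such a share a match in a single window is no more than a description of the letters.

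For the 3 RNAs with a mean of at least 100 normalized counts and a log2 range of at least 1, the genes with the most alike profile were sought among 11374 genes, by the root mean square difference of log2 group means over the 6 groups after centring. The profile of PCAT1 was nearest to PRAC1, a small nuclear protein gene of prostate and colon (difference 0.17), then KIF26A (0.21) and RBPMS (0.23). PRAC1 means were 1339 in control EtOH, 712 in control DHT and 649 in control FM, and 1937, 1195.5 and 1219.8 in KO. MALAT1 was nearest to SSPOP (0.06), MTCO1P12 (0.07) and NLGN1 (0.07). MTCO1P12 is a copy of a mitochondrial gene, so its counts are uncertain. GAS5 was nearest to SNHG32 (0.06), itself a snoRNA host, then CAVIN1 (0.08) and BID (0.08). SNHG32 means were 4137 in control EtOH, 3006 in control DHT and 1897 in control FM, and 3247, 2531 and 1497 in KO.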

How the data were processed

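The authors prepared stranded poly(A) libraries (TruSeq), processed reads with CASAVA (1.7) and mapped them to GRCh37 with TopHat2 (2.0.11), and deposited read counts per Ensembl gene from HTSeq (0.5.3p3), unnormalized and unpooled. HTSeq leaves out reads that map to several places or overlap several genes. How strand was used in counting, and which Ensembl release, is not given in the sources used here. Tool versions are from the submitters' processing notes.

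Genes with fewer than 10 counts in all were left out, which kept 26156. DESeq2 (1.42.0, R 4.3.3) was fitted once to the 12 samples with a coefficient per group, and p-values were adjusted over all genes tested (Benjamini-Hochberg). Intervals are Wald intervals at 95%. Depth was 20826843 to 30354666 gene counts. On simulated counts for DHT in control (26156 genes), DESeq2 recovered 78.6% of 2-fold and 99% of 4-fold changes with 10 false calls. The changes were placed only in genes with higher mean counts than PCA3, H19 and PCGEM1, so these rates do not describe these RNAs. Each gene was given the same dispersion in all groups, whereas the control EtOH duplicates differed most in the data. The rates hold for the simulated setting only. Group comparisons were DHT against EtOH, FM against EtOH and KO against control, with interaction contrasts.

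Alternatives were edgeR (4.0.16) quasi-likelihood with TMM, TMM size factors in DESeq2, other filters and thresholds, a replicate block, a fit of only the groups compared, and leaving out each sample. They were also applied to 3 of the lists after the data had been seen. The RNAs and lists were chosen with earlier results of these data known. By rule the text names the 8 RNAs, their neighbours, the 3 most alike genes, and from each list up to 4 genes that passed for DHT in control or KO in EtOH with the largest change and a mean of at least 100 normalized counts. Older symbols were matched through GENCODE release 44, which named 55665 identifiers. Some genes that this rule and the marker lists cover are not reported here.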

Additional observations from a re-analysis of the deposited data

Results flagged for a closer look

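The fall of PCAT1 in FM against EtOH was smaller in KO than in control, and the interaction test of this difference in DESeq2 passed, with a difference of 0.70 on the log2 scale (SE 0.19, adjusted p = 0.0193). FM samples stood at 261 and 268.5 normalized counts in control and at 672.5 and 646 in KO. The adjusted p ranged up to 0.291 over the fits that left out a sample, and the difference kept its sign in all of them.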

How the results depend on the processing

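With 2 samples per group, the alternatives moved both calls and values. Over the fits that left out a sample, 24 of 248 single results changed sign. With only the groups compared, 1 of 54 did. The number of the 8 RNAs that passed was 3 under every alternative run for FM in control, and for FM in KO it was 3 except for 4 with no fold change minimum and 4 in edgeR. With no fold change minimum it was 4 for DHT in control, 3 for DHT in KO and 3 for KO in DHT, and edgeR gave 3 for DHT in control. For DHT in KO it was 1 with at least 10 counts in every sample, 1 with only the groups compared, and 1 in each fit that left out a sample. For KO in FM it was 2 in edgeR. For the difference in FM response it was 0 in edgeR and 0 with only the groups compared. Leaving out a sample gave 0 to 1 for the difference in DHT response, 0 to 2 for KO in EtOH, 1 to 2 for KO in DHT and 0 to 2 for the difference in FM response. No cause was tested.

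Signs turned for values near 0 and for PCA3, whose counts were small. With only the groups compared, DANCR for KO in EtOH was -0.0055. Over the fits that left out a sample, MALAT1 for DHT in control lay between -0.0304 and 0.3379 and PCA3 for KO in EtOH was 0.1456. With all samples PCA3 was lower in KO in EtOH, with means of 4.9 normalized counts in KO EtOH and 6.8 in control EtOH. For the difference in DHT response GAS5 lay between -0.2066 and 0.2091. For KO in EtOH DANCR lay between -0.0995 and 0.107. For KO in FM NEAT1 lay between -0.1224 and 0.0539 and DANCR between -0.0403 and 0.082. For FM in control NEAT1 lay between -0.1411 and 0.0333 and DANCR between -0.1996 and 0.0064. For FM in KO H19 lay between -0.4676 and 0.1126. For the difference in FM response GAS5 lay between -0.1856 and 0.2159 and DANCR between -0.0825 and 0.1229.

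Whether samples with the same replicate number moved alike depended on the groups: the 15 correlations of duplicate differences had a mean of 0.0333, from -0.415 to 0.692 (control EtOH with control DHT), with 8 positive. The labels tie the numbers to no shared culture or day, so they were not taken as a pairing. With the replicate block the count of RNAs that passed stayed 2 for DHT in control and 1 for the difference in FM response, and none of 56 single results changed its call. Over all genes the block gave 281 for the difference in FM response beside 180, and edgeR 65. For the difference in DHT response edgeR gave 24 beside 55. DESeq2 with TMM size factors changed none of 57 calls.

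PCGEM1 had too few counts for an adjusted p in DESeq2, and the intervals of PCA3 and H19 spanned several-fold changes.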
